A study of Mus musculus with 6 samples.

Results

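Receptor-type tyrosine phosphatases are membrane proteins with an outer part that binds matrix, proteoglycans or neighbouring cells and an inner part that removes phosphate from tyrosines. The 8 genes described here are Ptprf, Ptprs, Ptprm, Ptprk, Ptpra, Ptpre, Ptprg and Ptprj, taken by gene name from a count table of 22740 protein-coding genes. They were chosen by gene family with the counts of the sorted groups and the difference of Ptprf between them known, so their differences between groups are given as a description. The counts of members called further on only place them beside all genes and support nothing. All 8 passed the filter on low counts, which kept 11921 genes.

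The libraries come from B16-F3, a line of the B16 mouse melanoma, untreated apart from culture and sorting. Sorting by flow cytometry on light scatter, which intracellular melanin alters, separated cells rich in pigment (HPC) from cells poor in it (LPC), with 3 libraries each numbered 1 to 3. All cells are of this 1 line, and the labels do not say whether the libraries of a group came from separate cultures or sorts. What the p-values measure is therefore the spread among these 6 libraries alone, and part of it may be technical. Each library counts reads at the 3′ ends of polyadenylated transcripts, so a level, given as CPM (the count relative to the library's scaled total), does not grow with transcript length.

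Total counts ran from 14695822 to 22186743 per library. The melanocytic markers Dct, Tyrp1, Pmel, Mlana, Sox10 and Mitf summed to between 32533 and 35952 CPM in HPC and between 31930 and 34398 CPM in LPC. The 4 keratinocyte markers, 3 of 4 endothelial markers and, of the immune markers, Ptprc and Cd3e had 0 counts in every library. The 5 fibroblast markers summed to between 13.7 and 23.9 CPM in HPC and between 8.10 and 28 CPM in LPC, with Dcn, Lum and Col3a1 at no more than 3 counts. LPC 1 had the highest sum, through Col1a2 at 24 CPM against 6.55 and 5.02 CPM in LPC 2 and LPC 3, and the part of this in the level of Ptprf in LPC 1 was not tested. The 5 immune markers analysed here summed to between 8.61 and 15.7 CPM in HPC and between 3.91 and 9.17 CPM in LPC. Most of that sum was Cd68, a lysosomal protein gene of macrophages, at 12.9, 6.95 and 10.2 CPM in HPC 1, 2 and 3 and at 2.63, 4.23 and 7.10 CPM in LPC 1, 2 and 3, higher in HPC in every numbered pair. Its part in the results was not tested, and Col1a2 and Cd68 are singled out after their values were seen. Fewer cells with a transcript and less of it per cell cannot be told apart in such bulk libraries.

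As background, receptor phosphatases counter tyrosine kinases. Some also activate them, as Ptpra and Ptpre do by removing the inhibitory phosphate of Src family kinases. The LAR group (Ptprf, which encodes LAR, with Ptprs and Ptprd) binds heparan and chondroitin sulfate proteoglycans and synaptic adhesion proteins, and its inner part recruits liprins. Ptprm and Ptprk bind their own kind on the neighbouring cell and act at cadherin contacts, Ptprg binds contactins, and Ptprj acts on growth factor receptors.

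The catalytic loop of these enzymes carries a cysteine that takes the phosphate from the substrate and an arginine that holds it. The bases that encode this loop in the first catalytic domain are shown for 7 of the genes because the loop is the shared active site of the family. They are read 5′ to 3′ from the GENCODE M21 transcript with the longest open reading frame, and capitals mark the codons of the cysteine and the arginine.
Ptprf: catTGCagtgcgggtgtggggCGCacaggc
Ptprs: cacTGCagcgcgggtgtggggCGCactggc
Ptprk: cacTGCagtgctggtgctgggCGCacaggc
Ptpra: cacTGCagtgcaggtgtagggCGCactggc
Ptpre: cacTGTagcgcgggcgtgggtCGGactggc
Ptprg: cacTGCagcgctggtgtgggcAGGacaggc
Ptprj: catTGCagtgctggggttggaAGGacgggc

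Over these 30 bases Ptprf was 90.0% identical to Ptprs, its LAR group relative, and 76.7% identical to Ptpre and Ptprj, the least alike of the other 6 shown. Ptprf was 86.7% identical to Ptpra and to Ptprk, and Ptprs was 90.0% identical to Ptpra. The loop therefore does not set the LAR group apart. A second loop with the same cysteine and arginine was found in Ptprf, Ptprs, Ptprk, Ptpra and Ptpre, and only 1 was found in Ptprg and Ptprj. Such likeness inside the coding part could matter for counting only where reads fall there. In the last 300 bases of the annotated coding transcripts, where 3′ reads are made, no word of 50 bases of Ptprf occurred in a transcript of another gene (0 of 758 words). The same held for Ptprs (0 of 1262), Ptprm (0 of 1004), Ptprk (0 of 1011), Ptpra (0 of 753), Ptpre (0 of 664) and Ptprg (0 of 502). For Ptprj, 231 of 502 words also occurred in Gm13768, an unprocessed pseudogene, so the count of Ptprj is uncertain to the extent that such reads were split or dropped.

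The 8 transcripts covered a wide range of abundance in these melanoma cells. Ptprs was the most abundant, with a mean of 1082 CPM over the 6 libraries, above 99.6% of tested genes. It made up 67.1% ± 3.37 of the summed CPM of the 8 genes in HPC and 62.9% ± 2.62 in LPC (SD, n = 3 each). That sum was 1755 ± 250 CPM in HPC against 1555 ± 237 CPM in LPC, a difference smaller than the spread within either group. By library the sum was 1879, 1468 and 1918.5 CPM in HPC 1, 2 and 3. In LPC 1, 2 and 3 the sum was 1595, 1300 and 1769 CPM, lower than in HPC in every numbered pair. In descending order of mean level came Ptprs, Ptprm (235 CPM), Ptpra (158 CPM), Ptprj (102 CPM), Ptprg (44.1 CPM), Ptprk (22.1 CPM), Ptprf (6.85 CPM) and Ptpre (4.08 CPM). The ranges over the 6 libraries did not overlap between neighbours in this order except for the last pair, Ptprf and Ptpre.

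**Figure D1:**
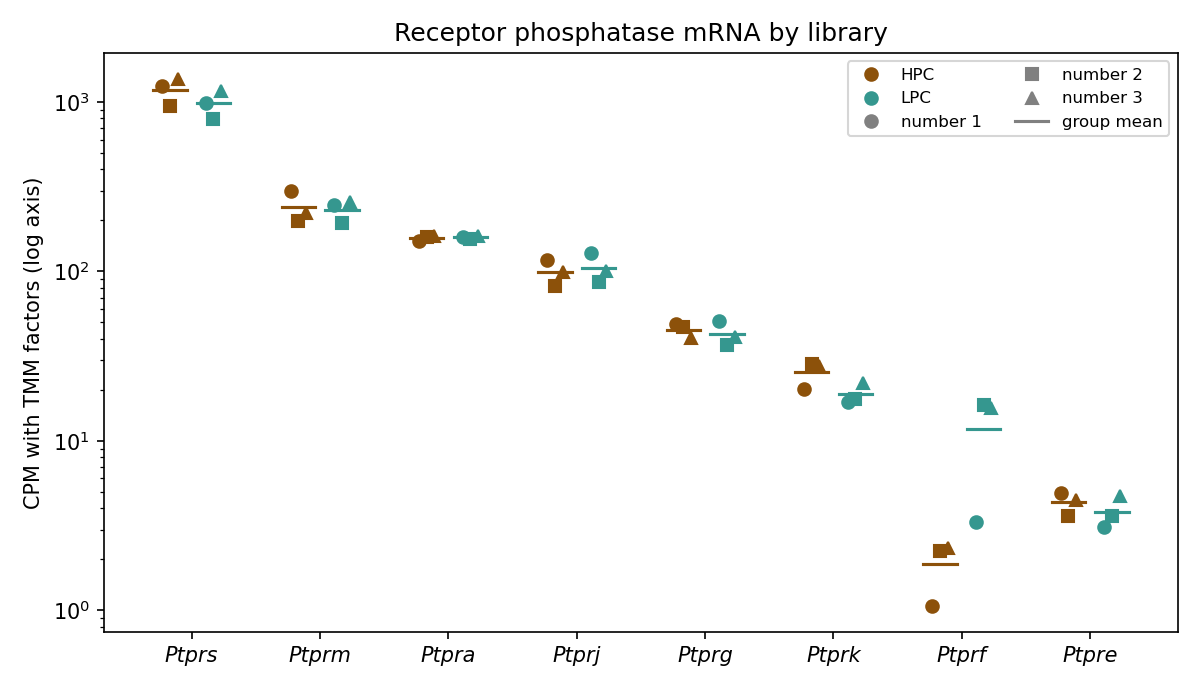
CPM of the 8 genes (log axis) in each library, with HPC in brown and LPC in teal, marker shape giving the library number and lines the group means (n = 3). Ptprf is spread widely, from 1.07 CPM in HPC 1 to 16.4 CPM in LPC 2, while for the other 7 genes the HPC and LPC points overlap.

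Ptprf (ENSMUSG00000033295) encodes LAR, an adhesion receptor of the cell surface. It lies at 118208213 to 118291405 of chromosome 4 (minus strand) of GRCm38. Its level was 1.07, 2.25 and 2.34 CPM in HPC 1, 2 and 3, and 3.31, 16.4 and 15.7 CPM in LPC 1, 2 and 3. All HPC libraries were below all LPC libraries, but LPC 1 lay near HPC and far under the other two LPC libraries. The underlying counts were 19, 50 and 46 in HPC and 49, 310 and 235 in LPC. The 95% counting interval of LPC 1, 2.45 to 4.37 CPM (exact Poisson, covering counting error only), overlapped those of HPC 2 (1.67 to 2.97 CPM) and HPC 3 (1.71 to 3.12 CPM).

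The group mean of Ptprf was 1.89 ± 0.71 CPM in HPC against 11.8 ± 7.37 CPM in LPC (SD, 3 libraries each), a 6.21-fold lower level (edgeR log2 fold change -2.64, SE 0.59). In libraries of equal number the log2 difference was -1.63 for number 1, -2.86 for number 2 and -2.75 for number 3. With the library number as a block, which compares within numbers, the log2 fold change was -2.55 (SE 0.25). In HPC 1, the lowest library for Ptprf, 3.21% of counts were mitochondrial. In the other 5 libraries the share was 2.07% to 2.56%, and its part in the result was not tested.

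Ptprf was the 1 member of 8 whose groups did not overlap, lower in HPC, and 7.18% of all tested genes did the same. None of the 8 was higher in HPC without overlap, a pattern of 7.16% of tested genes. Without the block 0 of the 8 passed edgeR's quasi-likelihood test at an adjusted p under 0.05, as did 0.0419% of all tested genes, and 2 of 8 had an unadjusted p under 0.05 (Ptprk and Ptprf), as did 9.37% of tested genes. With the block 1 of 8 passed (Ptprf), as did 2.52% of all tested genes, and DESeq2 without the block also called 1 of 8 (Ptprf), against 1.88% of all tested genes. DESeq2 with the block called 1 of 8 (Ptprf) and 4.19% of tested genes. Since this contrast was known when the genes were listed, nothing is read from these counts. The blocked call of Ptprf ended without the pair of libraries numbered 2, where its log2 fold change was -2.31. That fit called 0 of all tested genes, so the loss of the call is not particular to Ptprf.

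Ptprs (ENSMUSG00000013236), the sigma phosphatase of the LAR group and a proteoglycan receptor, lies at 56412426 to 56476483 of chromosome 17 (minus strand). Its level was 1238, 948 and 1361 CPM in HPC 1, 2 and 3 and 989, 790 and 1164 CPM in LPC 1, 2 and 3. The groups overlapped, yet each HPC library lay above the LPC library of its own number, by 0.32, 0.26 and 0.23 on the log2 scale. The log2 fold change was 0.27 with an SE of 0.18 without the block and 0.09 with it. Over all 6 libraries Ptprs passed in neither fit (edgeR adjusted p = 0.72 without the block and 0.18 with it). Over all tested genes, 19.6% were higher in HPC in all 3 numbered pairs. Ptprf and Ptprs, both of the LAR group, thus had differences of opposite sign, and whether they differ beyond the choice of Ptprf was not tested. Of the 8 members, 5 had a positive log2 fold change, so a sign opposite to Ptprf is not particular to Ptprs.

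Ptprd, the remaining gene of the LAR group and no member here, stood at 21.3 ± 3.87 CPM in HPC against 19.6 ± 5.35 CPM in LPC (SD, 3 libraries each). Its log2 fold change of 0.12 (SE 0.23) did not pass (edgeR adjusted p = 0.93 without the block and 0.78 with it). Without LPC 2 the sign reversed, to -0.071.

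The promoters of Ptprf and Ptprs are shown because these relatives had the largest difference and the highest level among the 8. The sequences are the 250 bases before the RefSeq transcription start on GRCm38.p6, for Ptprf chr4:118291398-118291647 and for Ptprs chr17:56476481-56476730, both on the minus strand and written 5′ to 3′. Capitals mark the E-box motifs CACGTG and CATGTG, searched on both strands; motifs of this type are bound by basic helix-loop-helix factors, a class that includes Mitf and Myc.
Ptprf: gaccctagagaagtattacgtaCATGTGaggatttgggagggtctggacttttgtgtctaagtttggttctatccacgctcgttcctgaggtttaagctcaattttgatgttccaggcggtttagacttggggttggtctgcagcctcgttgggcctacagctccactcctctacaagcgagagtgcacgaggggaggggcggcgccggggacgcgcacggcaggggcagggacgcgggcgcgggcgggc
Ptprs: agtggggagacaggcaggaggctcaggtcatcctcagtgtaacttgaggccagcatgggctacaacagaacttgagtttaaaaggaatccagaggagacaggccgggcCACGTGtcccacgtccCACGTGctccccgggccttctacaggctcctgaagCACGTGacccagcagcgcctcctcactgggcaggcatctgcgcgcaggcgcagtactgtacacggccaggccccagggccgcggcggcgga

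The Ptprf window held 1 CATGTG and no CACGTG, while this Ptprs window held 3 CACGTG and no CATGTG. Of 32851 promoter windows of 300 bases in the RefSeq table, 7.15% held CACGTG and 14.2% held CATGTG. Among the other members, CATGTG occurred in both windows of Ptprg, and neither motif occurred in the windows of Ptprm, Ptprk, Ptpra, Ptpre and Ptprj or in the second Ptprs window. The 300-base Ptprf window had 30 CG dinucleotides and that of Ptprs 21, against a median of 7 over all windows. Reads at 3′ ends do not show which start site was used, and a match is a description of the letters only.

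Ptprm (ENSMUSG00000033278) and Ptprk (ENSMUSG00000019889) encode homophilic adhesion phosphatases of cell contacts. Ptprm spans 66666947 to 67354457 of chromosome 17 (minus strand). Ptprk lies at 28074820 to 28597397 of chromosome 10 (plus strand). Ptprk stood at 20.4, 28.3 and 27.7 CPM in HPC 1, 2 and 3 and at 16.9, 17.6 and 22.0 CPM in LPC 1, 2 and 3. HPC 1 fell within the LPC range, and each HPC library lay above the LPC library of its number, by 0.27, 0.68 and 0.34 on the log2 scale. The log2 fold change of Ptprk was 0.44 (SE 0.18), the second largest in size among the 8 in the edgeR fit without the block.

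Ptprm was at 299, 197 and 221 CPM in HPC 1, 2 and 3 and at 245, 192 and 257 CPM in LPC 1, 2 and 3. The groups overlapped and the numbered pairs went both ways, with log2 differences of 0.28, 0.04 and -0.21. Its log2 fold change of 0.05 (SE 0.18) changed sign without HPC 1 or LPC 2.

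Ptpra (ENSMUSG00000027303) and Ptpre (ENSMUSG00000041836) encode the phosphatases with short outer parts that act on Src family kinases. Ptpra lies on chromosome 2 from 130450278 to 130556124 and Ptpre on chromosome 7 from 135537481 to 135686293, both on the plus strand. Ptpra was at 151, 159 and 162 CPM in HPC 1, 2 and 3 and at 159, 156 and 163 CPM in LPC 1, 2 and 3, a coefficient of variation of 2.77% over the 6 libraries, against a median of 14.6% over tested genes. It was the steadiest of the 8, with a log2 fold change of -0.02 (SE 0.10). The antisense gene 4930473A02Rik overlaps its 3′ end, and since the use of strand in counting is not given in the sources used here, reads of both genes could be counted together.

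Ptpre was at 4.94, 3.61 and 4.47 CPM in HPC 1, 2 and 3 and at 3.10, 3.59 and 4.75 CPM in LPC 1, 2 and 3, from counts of 46 to 88. These groups overlapped, with a log2 fold change of 0.18 (SE 0.26). Set beside Ptprf, Ptpre was the higher in all 3 HPC libraries and the lower in all 3 LPC libraries. The counting intervals of the 2 genes overlapped in LPC 1 (Ptpre 2.27 to 4.14 CPM) and in HPC 2 (Ptpre 2.86 to 4.49 CPM). In LPC 2 Ptprf, at 16.4 CPM (14.6 to 18.3), came close to Ptprk at 17.6 CPM.

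Ptprg (ENSMUSG00000021745), a contactin receptor, lies at 11553532 to 12242041 of chromosome 14 (plus strand). Its level was 48.7, 46.9 and 40.3 CPM in HPC 1, 2 and 3 and 50.8, 36.8 and 41.0 CPM in LPC 1, 2 and 3. The groups overlapped, with a log2 fold change of 0.08 (SE 0.15) that changed sign without LPC 2. Ptprj (ENSMUSG00000025314), which encodes a phosphatase with a single catalytic domain, lies at 90429754 to 90580647 of chromosome 2 (minus strand). It stood at 117, 82.6 and 99.1 CPM in HPC 1, 2 and 3 and at 128, 86.8 and 101 CPM in LPC 1, 2 and 3. Its log2 fold change was -0.08 (SE 0.18), with a change of sign without HPC 2 or LPC 1. All 3 numbered pairs of Ptprj were lower in HPC, with log2 differences of -0.12, -0.07 and -0.03, a pattern of 21.3% of tested genes.

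For Ptprs, Ptprm and Ptprj the library numbered 2 was the lowest of its group in both HPC and LPC, a pattern of 13.4% of tested genes. These 3 genes are singled out by this pattern, and whether their levels followed the library number more than the pigment group was not tested. Apart from Ptprf, the edgeR log2 fold changes of the members ran from -0.08 for Ptprj to 0.44 for Ptprk.

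**Figure D2:**
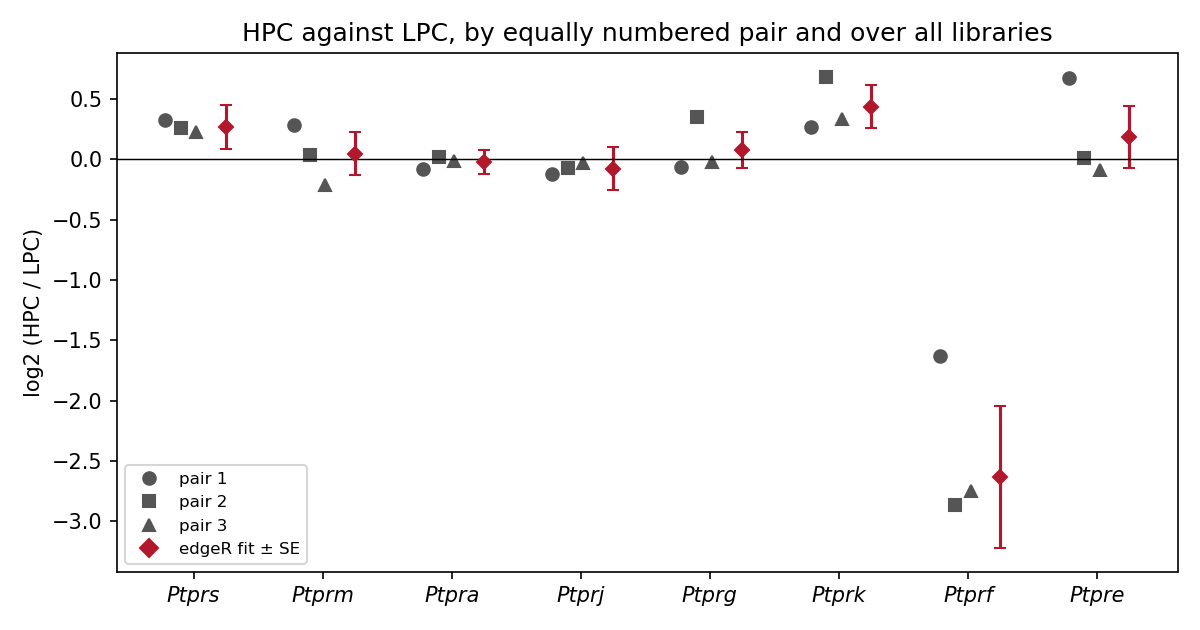
Log2 ratio of HPC to LPC for each pair of equally numbered libraries (grey) and the edgeR log2 fold change over all 6 libraries with its SE (red, n = 3 per group). The points of Ptprf lie between -1.63 and -2.86, and those of the other 7 genes between -0.21 and 0.68.

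The 5 genes whose log2 CPM was most like that of Ptprf over the 6 libraries, among 10214 other tested genes with a mean of at least 5 CPM, were Nmi, Khk, Tap2, Srcrb4d and Leng1. Nmi encodes an interferon-induced protein, Khk the fructose kinase and Tap2 a subunit of the peptide transporter for MHC class I. Pearson's r was 0.999, 0.996, 0.991, 0.990 and 0.990, as a description over 6 points that share libraries and scaling factors, and as the highest of many. Tap2 was at 9.60, 13.2 and 14.9 CPM in HPC 1, 2 and 3 and at 14.2, 43.8 and 48.3 CPM in LPC 1, 2 and 3, so LPC 1 lay within HPC and the other two LPC libraries stood apart. For Nmi too LPC 2 and LPC 3 were the highest, by less, at 14.7, 15.9 and 16.5 CPM in HPC and 17.3, 23.6 and 23.4 CPM in LPC. None of the other 7 members was among these genes, and r with Ptprf ran from -0.71 for Ptprg to 0.42 for Ptpra.

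Of 13 other receptor-type phosphatase genes, 12 were analysed and 3 reached the test, Ptprd, Ptpru and Ptprb. None of the 3 passed with edgeR, with or without the block, while 1 had an unadjusted p under 0.05 in each fit (Ptpru). Of all tested genes 9.37% had one without the block and 18.8% with it. Ptpru, which encodes a relative of Ptprm and Ptprk, is named after its values were seen. It was at 1.07, 1.13 and 1.22 CPM in HPC 1, 2 and 3 and at 2.09, 3.01 and 2.34 CPM in LPC 1, 2 and 3. The groups did not overlap, and 7.18% of tested genes were lower in HPC in this way. The log2 fold change of Ptpru was -1.12 (SE 0.29, edgeR adjusted p = 0.26, and 0.086 with the block). Ptprc, Ptprh, Ptprq and Ptprt had 0 counts in every library. Of 17 classical non-receptor phosphatases 13 were tested and 0 passed in either edgeR fit (1 at an unadjusted p under 0.05 without the block, 4 with it, where 18.8% of all tested genes had one). DESeq2 called 0 without the block and 1 with it, Ptpn6, as higher in HPC, against 1.88% and 4.19% of all tested genes. The most abundant of them was Ptpn14, at 346 ± 55.9 CPM in HPC against 297 ± 39.7 CPM in LPC.

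Receptor kinases that tyrosine phosphatases act on were the list with most calls when libraries were compared within numbers. Of 15 listed, 9 were tested. With the block 5 fell in HPC (Pdgfra, Pdgfrb, Epha2, Ephb2 and Fgfr1) and 1 rose (Met), where 1.1% of all tested genes were lower and 1.43% higher. Without the block edgeR called 0 of the 9, with 7 at an unadjusted p under 0.05, where 9.37% of all tested genes had one. DESeq2 without the block called 3 (Met, Pdgfrb and Ephb2), against 1.88% of all tested genes. DESeq2 with the block called the same 6 as the blocked edgeR fit, against 4.19% of all tested genes. The median log2 fold change of the 9 was -0.70, against -0.0091 over all tested genes. The changes of Met and Pdgfrb were known when the list was written, so the list is not independent evidence.

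As with Ptprf, LPC 1 was the lowest LPC library for 4 of the 5 kinase genes that fell, and LPC 3 for Ephb2. This pattern was singled out after the values were seen. Its share over all tested genes was not counted, so no likeness to Ptprf is read from it. Ephb2, an ephrin receptor gene, was at 4.44, 4.06 and 3.41 CPM in HPC 1, 2 and 3 and at 10.3, 12 and 8.37 CPM in LPC 1, 2 and 3. Its blocked fold change was 2.58-fold, lower in HPC (edgeR adjusted p = 0.013, and 0.11 without the block). Epha2, also an ephrin receptor gene, was at 0.28, 0.68 and 0.41 CPM in HPC and 0.74, 2.85 and 1.94 CPM in LPC. Within numbers it was 3.97-fold lower in HPC (edgeR adjusted p = 0.037, and 0.30 without the block). The platelet-derived growth factor receptor gene Pdgfrb was 3.00-fold lower with the block and its partner Pdgfra 2.16-fold (edgeR adjusted p = 0.0086 and 0.045, and 0.18 and 0.34 without it). Fgfr1, a fibroblast growth factor receptor gene, was 1.62-fold lower with overlapping groups (edgeR adjusted p = 0.049, and 0.47 without the block). Met, the hepatocyte growth factor receptor gene, went the other way, from 391 ± 197 CPM in LPC to 1572 ± 244 CPM in HPC (blocked edgeR adjusted p = 0.019, and 0.16 without the block). The blocked calls of all 6 kinases ended without the pair numbered 2, where the edgeR adjusted p ran from 0.080 for Met to 0.45 for Fgfr1. That fit called 0 of all tested genes, so the loss of these calls is not particular to the kinases. The calls of Pdgfra, Epha2 and Fgfr1 also ended without the pair numbered 3.

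**Figure D3:**
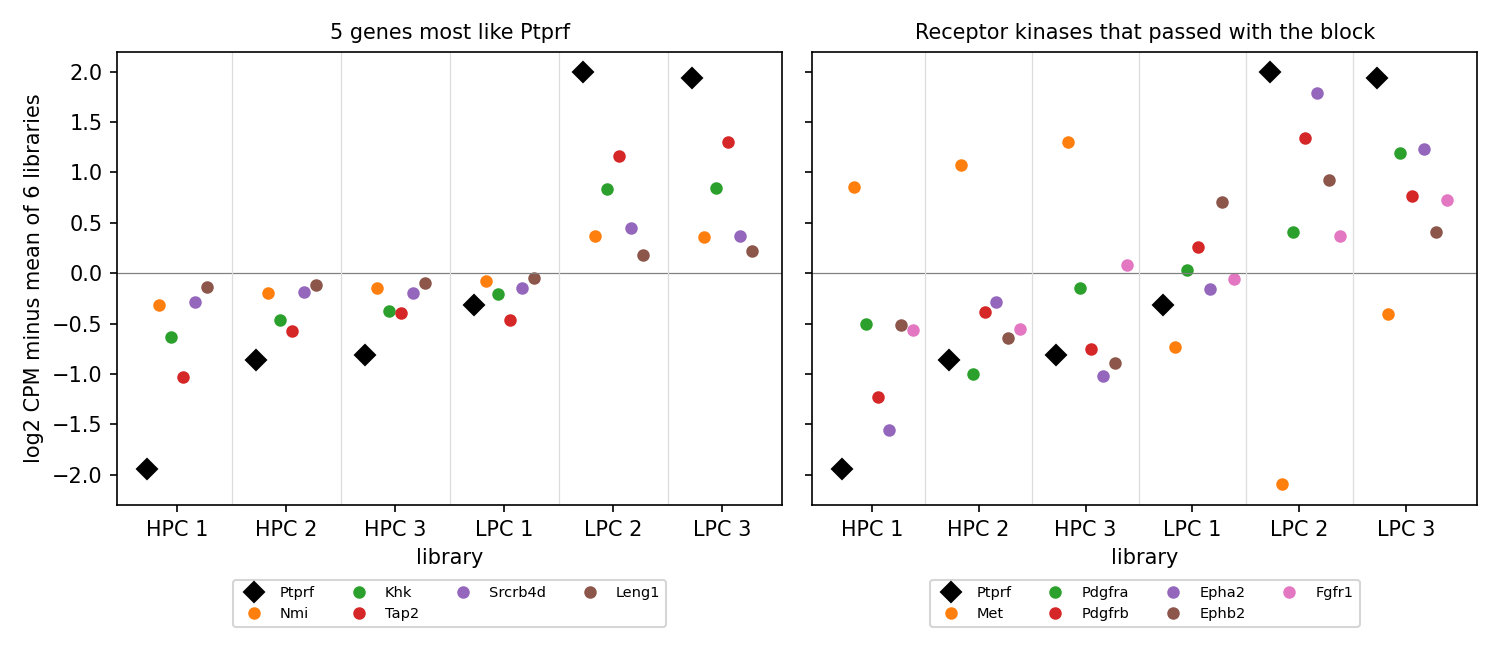
Log2 CPM minus the gene's own mean over the 6 libraries, for Ptprf (black diamonds) with the 5 genes most like it (left) and with the 6 receptor kinases that passed with the block (right). LPC 2 and LPC 3 are the highest for Ptprf and for the 5 like genes, and Met alone among the kinases shown is high in HPC.

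Among the listed extracellular partners 21 of 35 genes were tested, and with the block 1 rose in HPC (Gpc6) and 0 fell. Of all tested genes 1.43% rose and 1.1% fell in that fit. Gpc6, a heparan sulfate glypican gene, was at 34, 20.5 and 16 CPM in HPC 1, 2 and 3 and at 23.9, 13 and 10.3 CPM in LPC 1, 2 and 3, overlapping between groups. Within numbers it was 1.51-fold higher in HPC (edgeR adjusted p = 0.046, and 0.69 without the block). The most abundant partner, the glypican gene Gpc1, stood at 500 ± 103 CPM in HPC against 617 ± 49.7 CPM in LPC (edgeR adjusted p = 0.64 without the block). Without the block edgeR called 0 of the 21 (2 at an unadjusted p under 0.05), and DESeq2 called 1, the brevican gene Bcan, as lower in HPC. With the block 2 genes higher and 6 lower in HPC had an unadjusted edgeR p under 0.05. Over all tested genes these unadjusted shares were 9.37% without the block and 18.8% with it. DESeq2 with the block called 3, Gpc6 as higher and the heparan sulfate proteoglycan genes Agrn and Hspg2 as lower in HPC, with log2 fold changes of -0.40 and -0.50. Of all tested genes DESeq2 called 1.88% without the block and 4.19% with it.

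Of the cytoplasmic partners of the LAR group 13 of 15 were tested, and with the block 1 fell in HPC (Caskin1) and 0 rose. Of all tested genes 1.1% fell and 1.43% rose in that fit. Without the block edgeR called 0 (3 at an unadjusted p under 0.05, where 9.37% of all tested genes had one), as did DESeq2. DESeq2 with the block called 1, Caskin1, as lower in HPC, against 4.19% of all tested genes. Caskin1 encodes a scaffold protein that binds LAR and CASK. It was at 0.28, 0.32 and 0.66 CPM in HPC 1, 2 and 3 and at 0.47, 2.69 and 3.35 CPM in LPC 1, 2 and 3. LPC 2 and LPC 3 were thus the high libraries, a pattern not counted over all tested genes. The blocked difference was 5.02-fold (edgeR adjusted p = 0.042, and 0.32 without the block) and rests on 5 to 51 counts per library. Ppfibp1, a liprin-beta gene and the most abundant of this list, was at 507 ± 12.8 CPM in HPC against 474 ± 26.7 CPM in LPC (edgeR adjusted p = 0.84 without the block). The calls of Gpc6 and Caskin1 also ended without the pair numbered 2 (edgeR adjusted p = 0.39 and 0.41), where 0 of all tested genes were called. That of Gpc6 ended without the pair numbered 3 as well (0.17).

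In both edgeR fits 0 genes passed among 8 tested Src family kinases and regulators, 6 tested cadherins and catenins and 9 tested proteases that cut receptor phosphatases. At an unadjusted p under 0.05 there were 1, 1 and 0 without the block and 4, 1 and 2 with it, against 9.37% and 18.8% of all tested genes. DESeq2 called 0, 1 (Jup, the plakoglobin gene, lower in HPC) and 0, with the block as well as without it. Of all tested genes it called 1.88% without the block and 4.19% with it. Bcan, Agrn, Hspg2, Ptpn6 and Jup are named after their values were seen. The most abundant gene of each list was Csk, which encodes the kinase that puts the inhibitory phosphate on Src (168 ± 14.5 CPM in HPC against 203 ± 9.10 CPM in LPC), Ctnnb1, the beta-catenin gene (1915 ± 32.4 against 2121 ± 29.2 CPM), and Psen2, a gamma-secretase subunit gene (296 ± 35.3 against 361 ± 45.7 CPM).

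**Figure D4:**
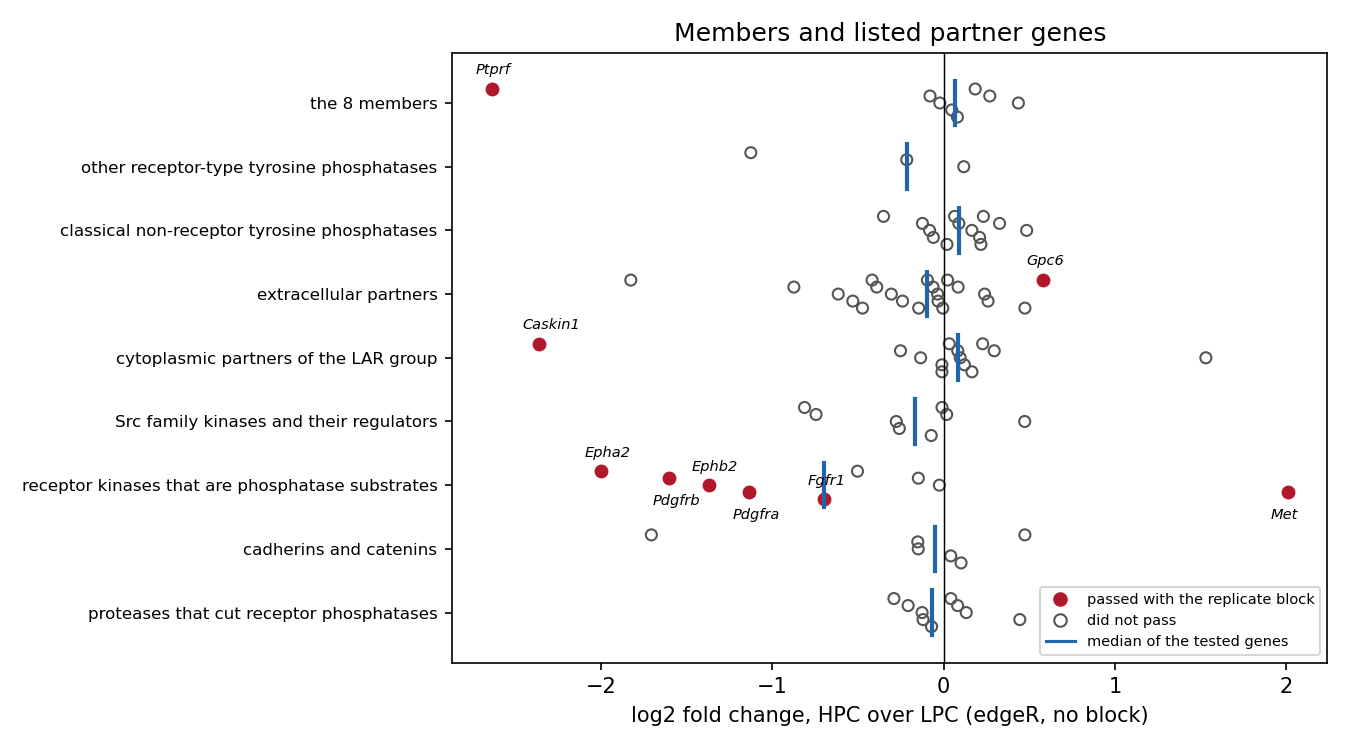
EdgeR log2 fold change (HPC over LPC, no block) of every tested gene of the members and of each partner list, with blue lines for medians and filled red points for genes that passed with the replicate block. Of the lists outside the members, the receptor kinases hold 6 of the red points and have the lowest median, -0.70.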

How the data were processed

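The authors deposited raw counts per protein-coding gene, not normalized, from QuantSeq 3′ mRNA-Seq FWD libraries, per the labels' protocols. STAR and GRCm38 are named in the submitters' processing notes. Not given in the sources used here are the counting program, the annotation release and the use of strand or molecular identifiers. Depth was 14695822 to 22186743 counts per library, which limits low genes most. Genes were filtered with filterByExpr, scaled with TMM factors and tested with edgeR 4.0.16 in R 4.3.3 (quasi-likelihood F-test, group as the only term, 4 residual degrees of freedom), with Benjamini-Hochberg adjustment over all tested genes and a threshold of 0.05. SEs were derived from the F statistic, and folds are fitted. Alternatives were other scalings, no filter, DESeq2 1.42.0, limma-voom (limma 3.58.1), the replicate block and left-out libraries. The script was tested on simulated data.

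The groups share library numbers. Deviations from group means correlated at 0.41, 0.39 and 0.71 for numbers 1, 2 and 3, above the minimum of 0.1, so the pairing comes from the data, not the labels. Blocked fits have 2 residual degrees of freedom.

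The members and lists were chosen with earlier results of these data known. Named genes are the 8 members, listed genes that passed either edgeR fit, each list's most abundant gene, and the 5 genes most like Ptprf by Pearson's r of log2(CPM + 1). Positions are from GENCODE M21 and promoters from RefSeq, both on GRCm38. All 8 members matched both; the loop sequence of 1 member is not reported here.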

Additional observations from a re-analysis of the deposited data

How the results depend on the processing

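Without the block, edgeR called 5 of all tested genes. The number was 28 with no filter, 224 with DESeq2, 301 with the replicate block and 500 with DESeq2 and the block, and ran from 0 to 43 when 1 library was left out. With the block and 1 numbered pair left out, which leaves 1 residual degree of freedom, it was 2947 without pair 1, 0 without pair 2 and 196 without pair 3. Of the 8 phosphatases, 0 were called without the block, 1 with DESeq2, 1 with the replicate block and 1 with DESeq2 and the block. The number ran from 0 to 1 without single libraries and from 0 to 3 with the block and without a pair. Ptprf was lower in HPC in all 17 alternatives, with log2 fold changes from -3.07 without LPC 1 to -2.30 without LPC 2. Calls of members rest on the contrast known when they were chosen and support nothing. Ptprf was under the threshold with DESeq2 (-2.64), with the block (-2.55), with both (-2.49), without LPC 1 (-3.07), and with the block without pair 1 (-2.79) or pair 3 (-2.39). With the block and without pair 1, Ptprk (0.52) and Ptprs (0.26) were also under it, higher in HPC, as was Ptprd (0.48), no member. Signs reversed for Ptpra without HPC 1 (0.014) and with the block without pair 1 (0.017), for Ptpre with the block without pair 1 (-0.029), and for Ptprg without LPC 2 (-0.0081) and with the block without pair 2 (-0.043). They reversed for Ptprj without HPC 2 (0.040) or LPC 1 (0.085), and for Ptprm without HPC 1 (-0.14), without LPC 2 (-0.059) and with the block without pair 1 (-0.076). Ptprd reversed without LPC 2 (-0.071) and with the block without pair 2 (-0.13). When single libraries were left out, the ranges of these genes ended at 0.22 for Ptprg, -0.21 for Ptprj, 0.17 for Ptprm and 0.31 for Ptprd. Caskin1 failed the filter with the block and without pair 3, so that alternative gave no value. The cause of these changes was not tested. The low counts of Ptprf, Ptpre, Epha2 and Caskin1 limit their precision.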
